A study of Homo sapiens with 18 samples.

Results

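CNGA3, TMEM158 and SYT7 are 3 of the 61544 genes listed in each of the count tables. They were chosen by name because their read counts fell with both guides that target PURPL. The values with the guides against the control guide are therefore a description without a test. What remained to be tested was how the same genes behaved in other libraries, from cells that overexpress PURPL, and whether the arms differed from each other. A gene was taken from a table wherever its symbol was one of the 3 names, and each name matched 1 row.

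PURPL is a long non-coding RNA that p53 induces, and the study set its depletion and its overexpression in fibroblasts beside each other in relation to senescence. All 18 libraries came from BJ cells, a human skin fibroblast line, and formed 6 groups of 3. In the knockdown table, a control guide (sgCtrl) was compared with 2 guides against PURPL (sgRNA-PURPL#1 and sgRNA-PURPL#2), used for CRISPR interference, where a dead Cas9 repressor is brought to a gene to silence it. In the overexpression table, a control (Ctrl) was compared with 2 groups that overexpress PURPL (PURPL#1-OE and PURPL#2-OE). The labels give no age, passage or time in culture, and they do not say whether #1 and #2 of the overexpression arm are separate constructs, lines or clones. They also do not say whether the libraries of a group came from separate cultures, so p-values measure the spread between these libraries, which may be technical.

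CNGA3 encodes the alpha subunit of the cyclic-nucleotide-gated channel of cone photoreceptors, which passes cations when cGMP is bound, and its loss causes achromatopsia. TMEM158, also known as Ras-induced senescence 1, encodes a membrane protein whose transcript was first described as rising when oncogenic RAS drives fibroblasts into senescence. SYT7 encodes a synaptotagmin, a calcium sensor for membrane fusion that acts in slow neurotransmitter release and, in fibroblasts, in the fusion of lysosomes with the plasma membrane during membrane repair.

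The positions below are those of the tables, whose builds are named as hg38 and GRCh38.p13 in the submitters' processing notes. CNGA3 (ENSG00000144191.12) lies on chromosome 2, plus strand, between 98346188 and 98398601. TMEM158 (ENSG00000249992.2) is on chromosome 3, minus strand, between 45224466 and 45226287, and has 1 exon in GENCODE 29. SYT7 (ENSG00000011347.10) is on chromosome 11, minus strand, between 61513714 and 61581148. A RefSeq promoter sequence (GRCh38.p14) was matched for 2 of the 3 genes, CNGA3 and TMEM158. The 250 bases before the start of TMEM158, at chr3:45226288-45226537 on the minus strand, are printed 5′ to 3′ because TMEM158 fell in every arm and its promoter has an unusual base composition. Capitals mark the GC box, GGGCGG, on either strand.

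TMEM158 promoter: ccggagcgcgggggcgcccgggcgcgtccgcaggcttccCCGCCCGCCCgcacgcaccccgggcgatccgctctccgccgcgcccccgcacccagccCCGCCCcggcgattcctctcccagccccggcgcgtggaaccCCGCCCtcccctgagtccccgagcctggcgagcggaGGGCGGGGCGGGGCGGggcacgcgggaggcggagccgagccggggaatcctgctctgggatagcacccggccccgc

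GC bases made up 82.4% of this window, which is the 98.6th percentile of all promoters in the RefSeq table, where the median was 58.0%. It held 7 GC boxes, counted with overlaps among themselves, and 42.6% of the 35116 promoters held at least 1. The window that RefSeq places before CNGA3, chr2:98346206-98346455, lies inside the CNGA3 span of the count tables and wholly in GENCODE 29 exons (250 of 250 bases), so by those annotations it is transcribed sequence. It was 62.8% GC and held 1 GC box. Neither window held an AP-1 element (TGANTCA, in 6.57% of promoters), a cAMP response element (TGACGTCA, 1.65%), a TATA box (TATAAA, 10.7%), an E-box (CACGTG, 6.34%) or a CAAT box (CCAAT, 32.0%) on either strand. A match is only a run of letters, and no match says nothing about binding of a factor.

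Before the values, the overlaps of the 3 genes with other genes were laid out, because the counting left out reads shared by genes on one strand. The length column of the tables is the whole gene span for all 61544 genes. All 9429 genes nested in a same-strand gene had 0 counts in all 18 libraries. Reads thus appear to have been assigned to whole spans, introns included. Overlaps over the span are those that bear on the counts, and overlaps over exons are given beside them. TMEM158 overlapped no other gene. CNGA3 contains 1 same-strand long non-coding gene, ENSG00000227987.1 (98346995 to 98351140), which covers 4146 bases of its span. None of the exon bases that GENCODE 29 gives CNGA3 lie in it. SYT7 contains 2 such genes, ENSG00000279878.1 of 895 bases and ENSG00000256443.1 of 2744 bases, which cover 3639 bases of its span and hold 49 of its exon bases, or 0.823%. GENCODE 29 is another release than that of the tables, and it places the ends of all 3 genes a little differently. On the opposite strand, ENSG00000222000.7 (98331389 to 98356005) overlaps CNGA3 by 9818 bases and covers 8.68% of its exon bases. Its counts, summed over 3 libraries, were 16, 17 and 18 in sgCtrl, sgRNA-PURPL#1 and sgRNA-PURPL#2, where CNGA3 had 315, 58 and 54. They were 9, 0 and 1 in Ctrl, PURPL#1-OE and PURPL#2-OE, where CNGA3 had 37, 8 and 6. The antisense gene thus held level where CNGA3 fell with the guides and was also near 0 where CNGA3 was near 0 with overexpression. The strand setting of the counting is not given in the sources used here, so CNGA3 is uncertain to this extent.

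Library totals lay between 11444513 and 12896040 counts for knockdown and between 18858976 and 27985649 for overexpression. PURPL itself followed the labels. Its level, in CPM (counts scaled to a common library size with TMM factors), was 80.7 ± 12 (SD, n = 3) in sgCtrl, 15.7 ± 1.94 in sgRNA-PURPL#1 and 19.4 ± 1.82 in sgRNA-PURPL#2. It was 64.4 ± 4.49 in Ctrl, 173 ± 6.39 in PURPL#1-OE and 123 ± 7.51 in PURPL#2-OE. Fibroblast collagens and surface markers were abundant in every library, with a summed level of 9 markers from 13700 to 30300 CPM. That sum was 22100 to 22700 in Ctrl, 26700 to 27900 in PURPL#1-OE and 29100 to 30300 in PURPL#2-OE, and its part in the results was not tested. The sum of 5 endothelial markers was 4.05 to 5 CPM in Ctrl and 2.09 to 2.92 in the overexpression groups, with CLDN5 at 0, and that of 6 melanocyte markers was 52 to 55.5 and 70.7 to 78 CPM, with 5 of the 6 under 1 CPM; the part of these was not tested either. Of 8 cone photoreceptor markers none reached 1 CPM in any library, and their sum ran from 0.156 to 1.17 CPM. The cone opsin OPN1LW and the cone calcium sensor GUCA1C were at 0 in both tables. In bulk RNA, fewer cells that express a gene and less of its RNA per cell cannot be told apart.

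With the guides, CNGA3 stood at 7.36, 8.86 and 9.07 CPM in the 3 sgCtrl libraries. It stood at 1.55, 1.35 and 1.83 CPM with sgRNA-PURPL#1 and at 1.48, 1.59 and 1.33 CPM with sgRNA-PURPL#2. The guide libraries lay close together and far below every control library. The log2 fold changes were -2.42 (SE 0.201) and -2.52 (SE 0.204), that is, 18.7% and 17.5% of the control level.

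TMEM158 stood at 4.42, 2.56 and 4.22 CPM in sgCtrl, at 1.01, 1.58 and 1.22 with sgRNA-PURPL#1, and at 0.33, 0.838 and 0.938 with sgRNA-PURPL#2. No guide library reached the lowest control library, and 1 library of sgRNA-PURPL#2 was lower than the rest. The log2 fold changes were -1.54 (SE 0.294) and -2.38 (SE 0.33), or 34.3% and 19.2% of control.

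SYT7 stood at 5.54, 7.38 and 5.63 CPM in sgCtrl, at 3.03, 1.66 and 2.09 with sgRNA-PURPL#1, and at 1.65, 0.587 and 1.09 with sgRNA-PURPL#2. Here too the guide and control libraries did not overlap, and both guide groups spread more in relation to their level than the control did. The log2 fold changes were -1.45 (SE 0.234) and -2.47 (SE 0.269), or 36.7% and 18.1% of control. For scale, 12.9% of the 13923 genes tested were called lower with sgRNA-PURPL#1 and 12.4% with sgRNA-PURPL#2, by edgeR's quasi-likelihood test at a Benjamini-Hochberg adjusted p under 0.05. The rule picked the genes on these comparisons, which share the sgCtrl libraries, and nothing is read from their places in them.

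**Figure D1:**
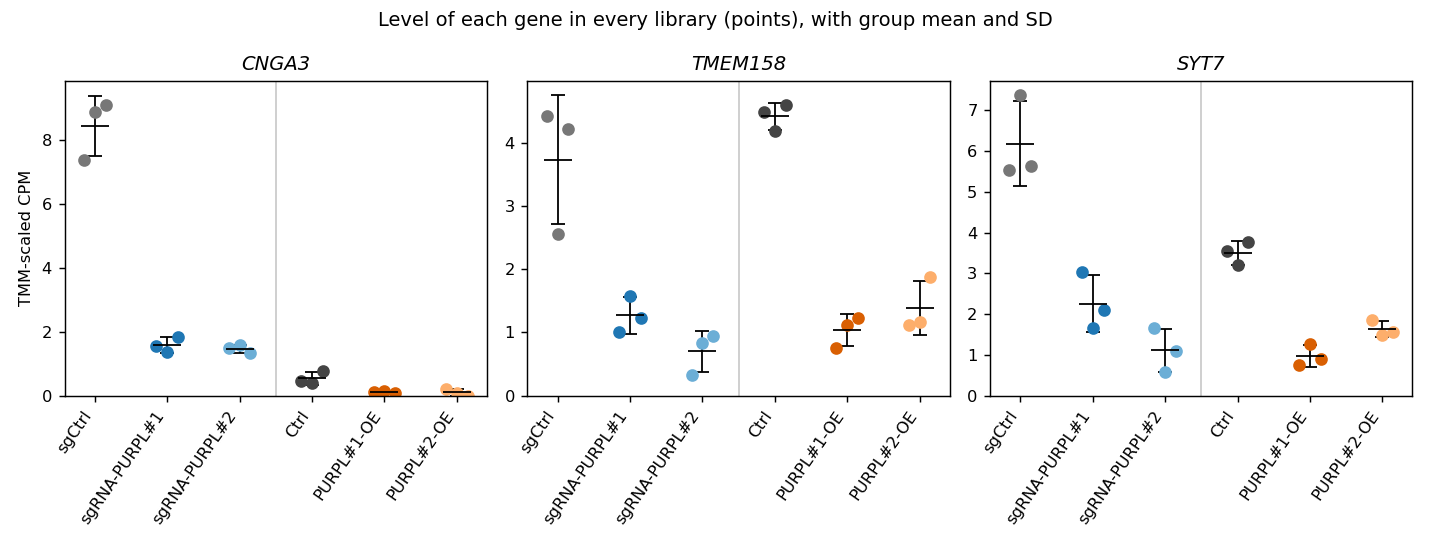
Level of CNGA3, TMEM158 and SYT7 in CPM (vertical axis, linear, from 0) in each of the 18 libraries, 1 point a library, with the mean and SD of each group of 3. Every guide library lies below every sgCtrl library and every overexpression library below every Ctrl library. With the guides this follows from the choice of genes, and how many of all genes separate in this way was not counted. CNGA3 is near 0 throughout the overexpression table, where its Ctrl mean was 0.544 CPM and it passed the filter only through Ctrl.

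The guides were then compared with each other, a contrast that the choice of genes did not use. SYT7 was lower with sgRNA-PURPL#2 than with sgRNA-PURPL#1, by a log2 fold change of -1.02 (SE 0.321, adjusted p = 0.0408, edgeR). The level was 2.26 ± 0.7 CPM (SD, n = 3) with the first guide and 1.11 ± 0.532 with the second, and the groups did not overlap. Of all genes tested, 3.74% were called lower in this contrast. The call was lost in edgeR without replicate 1 or 3 of sgRNA-PURPL#1 or replicate 2 or 3 of sgRNA-PURPL#2, where the adjusted p ran from 0.0802 to 0.276. TMEM158 had 1.27 ± 0.29 and 0.702 ± 0.326 CPM, without overlap, but the difference of -0.84 (SE 0.4) did not pass the test (adjusted p = 0.226, edgeR). CNGA3 had 1.58 ± 0.242 and 1.47 ± 0.132 CPM, a difference of -0.10 (SE 0.274, adjusted p = 0.901, edgeR). The ratio of its pooled counts, 54 to 58, has a 95% counting interval from 63.3% to 138%, so a difference within that range was not detectable at this depth. PURPL did not pass the test between the guides either (0.30, SE 0.119, adjusted p = 0.128, edgeR). The levels in the knockdown table were thus ordered sgCtrl, sgRNA-PURPL#1, sgRNA-PURPL#2 for SYT7 and, without passing the test between the guides, for TMEM158. For CNGA3 the guides overlapped and could not be ordered.

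With overexpression of PURPL, TMEM158 and SYT7 fell as well, in both groups. CNGA3 was also called lower in both, but on 37, 8 and 6 reads, and it entered the test only through the Ctrl group, so its call is no support of its own. Genes called lower made up 20.1% of the 15267 tested in PURPL#1-OE against Ctrl and 19.6% in PURPL#2-OE against Ctrl, and those at least 2-fold lower 5.26% and 5.21%. TMEM158 and SYT7 were more than 2-fold lower in both comparisons, which share the Ctrl libraries. PURPL moved in opposite directions in the tables while these genes were lower in each.

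TMEM158 stood at 4.48, 4.18 and 4.59 CPM in the Ctrl libraries, at 0.751, 1.12 and 1.23 in PURPL#1-OE, and at 1.12, 1.16 and 1.88 in PURPL#2-OE. The Ctrl libraries lay within a narrow band, and the highest overexpression library stayed far below it. The log2 fold change was -2.10 in PURPL#1-OE (SE 0.228, adjusted p = 7.26e-09, edgeR), or 23.3% of control. In PURPL#2-OE it was -1.64 (SE 0.222, adjusted p = 4.65e-07, edgeR), or 32% of control. TMEM158 was lower in 6 of 6 overexpression libraries than in any Ctrl library, but how many of all genes separated in this way was not counted. It had 311 counts in Ctrl, 77 in PURPL#1-OE and 92 in PURPL#2-OE.

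SYT7 stood at 3.54, 3.2 and 3.77 CPM in Ctrl, at 0.751, 1.26 and 0.909 in PURPL#1-OE, and at 1.86, 1.48 and 1.56 in PURPL#2-OE. The 3 groups formed 3 separate bands, with PURPL#2-OE in the middle. The log2 fold change was -1.86 in PURPL#1-OE (SE 0.23, adjusted p = 9.21e-08, edgeR) and -1.10 in PURPL#2-OE (SE 0.217, adjusted p = 0.000137, edgeR), or 27.6% and 46.6% of control. SYT7 was also lower in 6 of 6 overexpression libraries, again without a count over all genes.

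CNGA3 had few reads in this table: 12, 10 and 15 counts in the Ctrl libraries, 3, 3 and 2 in PURPL#1-OE, and 4, 2 and 0 in PURPL#2-OE. As levels these were 0.467, 0.391 and 0.774 CPM, then 0.107, 0.135 and 0.0791, then 0.213, 0.0925 and 0. Every overexpression library lay below every Ctrl library, but all values rest on 15 or fewer reads. The log2 fold change was -2.27 in PURPL#1-OE (SE 0.636, adjusted p = 0.00498, edgeR) and -2.44 in PURPL#2-OE (SE 0.68, adjusted p = 0.00485, edgeR). The pooled counts per library size were 20.2% of control in PURPL#1-OE, with a 95% exact counting interval from 8.14% to 44.1%, and 17.7% in PURPL#2-OE, with an interval from 6.1% to 42.2%. The intervals cover counting error only, since PCR copies were not told apart. CNGA3 entered the test only through the Ctrl group, where all 3 libraries reached the count filter of 0.405 CPM, against 0 of 6 overexpression libraries. A gene that passes a filter in this way had to be higher there, and without Ctrl replicate 1 it fell below the filter and was not tested. TMEM158 and SYT7 passed the filter in all 9 libraries.

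CNGA3 was 8.43 ± 0.931 CPM (SD, n = 3) in sgCtrl and 0.544 ± 0.203 in Ctrl. TMEM158 was 3.73 ± 1.02 and 4.42 ± 0.213, and SYT7 6.18 ± 1.04 and 3.5 ± 0.284. The tables were normalized separately and share no library, so a difference between their controls cannot be told apart from a difference between the experiments.

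**Figure D2:**
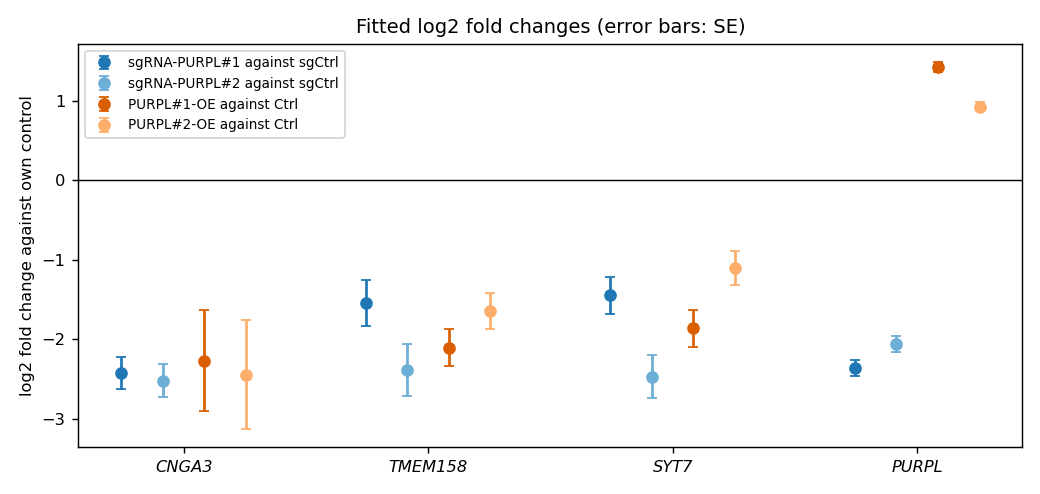
Log2 fold change with its SE for CNGA3, TMEM158, SYT7 and PURPL in each arm against its own control, from edgeR. The 3 genes lie between -1.10 and -2.52 in all 4 comparisons, while PURPL lies at -2.36 and -2.06 with the guides and at 1.43 and 0.93 with overexpression. The 3 genes were chosen for their fall with the guides. With overexpression CNGA3 rests on 8 and 6 reads and passed the filter only through Ctrl, so nothing is read from its place there.

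The overexpression groups also differed from each other in PURPL itself, which was lower in PURPL#2-OE by a log2 fold change of -0.50 (SE 0.0571, adjusted p = 1.81e-07, edgeR). SYT7 was higher in PURPL#2-OE than in PURPL#1-OE by 0.76 (SE 0.256, adjusted p = 0.0496, edgeR), with 1.63 ± 0.204 against 0.972 ± 0.259 CPM (SD, n = 3). Of all genes tested, 6.18% were called higher in this contrast. This call lay at the threshold: it was lost with DESeq2 (adjusted p = 0.0738) and in 5 of the 6 edgeR fits that left out 1 library of either group, where the adjusted p ran from 0.0296 to 0.218. TMEM158 differed by 0.46 (SE 0.267, adjusted p = 0.301, edgeR), with 1.39 ± 0.431 against 1.03 ± 0.25 CPM, and the groups overlapped. CNGA3 differed by -0.17 (SE 0.897, adjusted p = 0.936, edgeR). Its ratio of pooled counts, 6 to 8, has a counting interval from 25% to 287%, too wide to show a difference or its absence. By group mean, the order was Ctrl, PURPL#2-OE, PURPL#1-OE for SYT7, where only that call at the threshold told the overexpression groups apart. TMEM158 had the same order of means, but its overexpression groups overlapped and did not pass the test. For CNGA3 the overexpression groups, at 0.107 ± 0.0279 and 0.102 ± 0.107 CPM, could not be ordered.

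How common such a pattern was can be read from the other genes that fell with the guides. Apart from PURPL, 78 genes were called lower and were at least 2-fold lower with each guide (with PURPL 0.567% of the genes tested), and 74 of them were tested in the overexpression table, which shares no library with the first. Without CNGA3, TMEM158 and SYT7, 71 remained. Of these, 38 (53.5%) were called lower and 11 (15.5%) higher in PURPL#1-OE, and 37 (52.1%) lower and 9 (12.7%) higher in PURPL#2-OE, beside 20.1% and 19.6% lower among all genes. Their median log2 fold changes were -0.44 and -0.39, beside 0.01 for all genes in each. By the mean of the overexpression log2 fold changes, TMEM158 ranked 4 from the lowest of the 74 and SYT7 ranked 14. CNGA3 ranked 2, a place drawn from 8 and 6 reads of a gene that passed the filter only through Ctrl, and nothing is read from it.

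**Figure D3:**
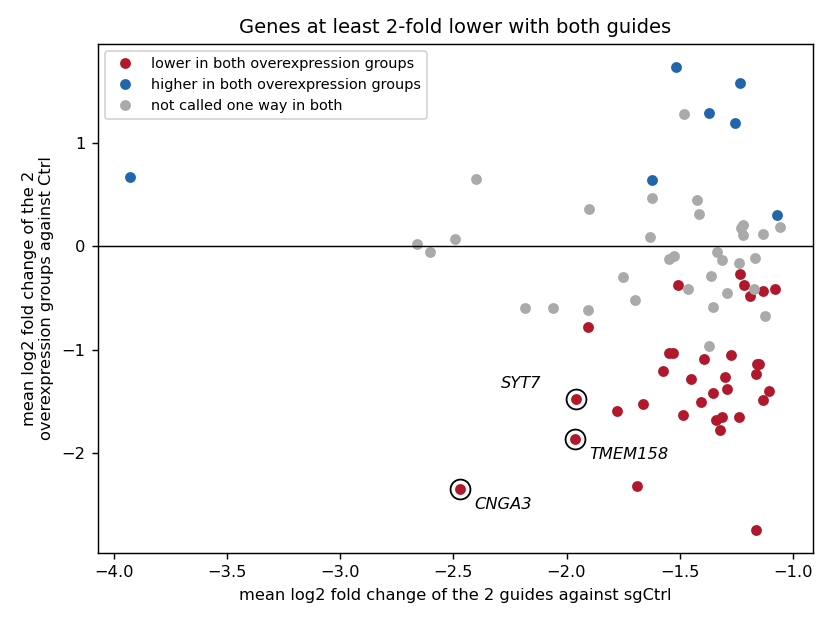
Each point is 1 of the 74 genes at least 2-fold lower with both guides and tested with overexpression, with its mean log2 fold change over the guides (horizontal axis) and over the overexpression groups (vertical axis), coloured by its calls in the overexpression table. TMEM158 (-1.96, -1.87) and SYT7 (-1.96, -1.48) lie in the lower part of a cloud that spans both sides of 0 on the vertical axis. CNGA3 is drawn at (-2.47, -2.35), a height that rests on 8 and 6 overexpression reads, and nothing is read from it.

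TMEM158 is known as a gene that follows RAS, so 23 other genes whose transcripts follow RAS and ERK signalling were described beside it. With overexpression most of them fell: 18 of 23 were called lower and 1 higher in PURPL#1-OE, and 17 lower and 2 higher in PURPL#2-OE, where 20.1% and 19.6% of all genes were called lower. The median log2 fold changes were -0.98 and -0.57. With the guides, 10 were lower and 3 higher for sgRNA-PURPL#1 and 9 lower and 1 higher for sgRNA-PURPL#2, where 12.9% and 12.4% of all genes were called lower. The medians were -0.27 and -0.38, beside 0.00 over all genes. DUSP4, a phosphatase that switches off ERK, fell in all 4 arms, by log2 fold changes of -1.49 and -1.60 with the guides and -1.03 and -1.03 with overexpression (adjusted p at most 5.17e-09, edgeR). EREG, the EGF receptor ligand epiregulin, fell by -0.56, -0.86, -1.34 and -0.94 in the same order, and AREG, amphiregulin, by -0.92, -0.82, -2.57 and -1.50. FOSL1, an AP-1 subunit, fell by less with the guides (-0.45 and -0.39) than its own change with overexpression (-2.24 and -2.02), a difference between tables that was not tested. PHLDA1 fell only in the overexpression table among these contrasts, by -1.69 and -1.51, and had 0.10 and -0.06 with the guides (adjusted p = 0.271 and 0.53, edgeR); that difference was not tested either. LIF, a cytokine, fell with overexpression to 0.528 ± 0.0496 and 0.605 ± 0.0922 CPM from 3.41 ± 0.156 (SD, n = 3). With the guides LIF had 0.21 and 0.53 (adjusted p = 0.727 and 0.298, edgeR). EPHA4, an ephrin receptor, went the other way and rose by 0.68, 1.04, 0.67 and 0.50. TMEM158 thus fell in each arm together with many, but not all, of these genes.

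**Figure D4:**
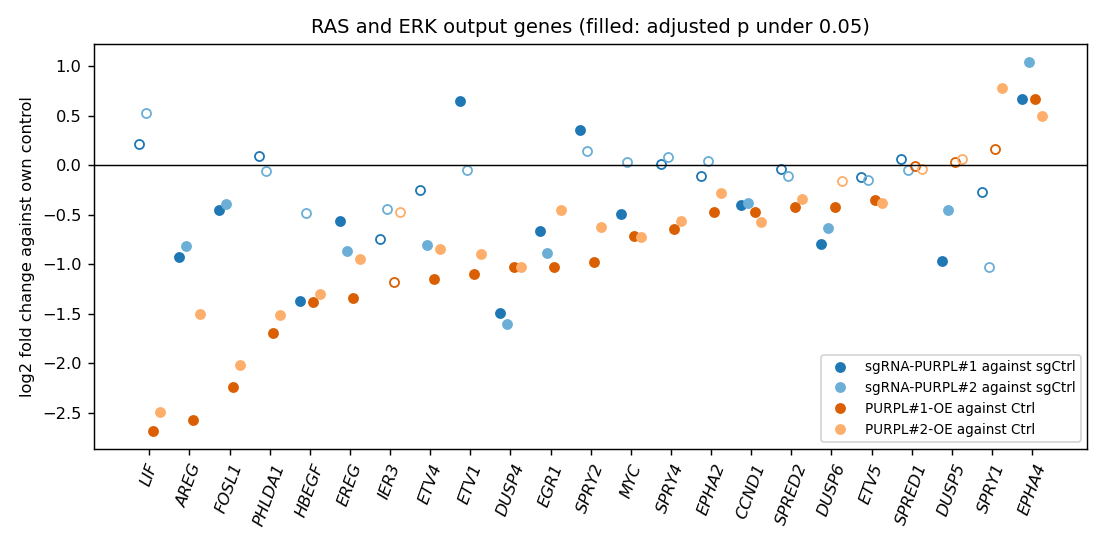
Log2 fold change of each of the 23 RAS and ERK genes in the 4 arms against their controls, with filled points for an adjusted p under 0.05 and open points otherwise. Most filled points lie below 0, those of DUSP4, EREG and AREG among them in all 4 arms, and EPHA4 lies above 0 in all 4.

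CNGA3 was set beside 25 genes of cyclic-nucleotide-gated channels and cGMP metabolism. Of 14 tested with the guides, 7 were higher and 2 lower for sgRNA-PURPL#1, and 6 higher and 0 lower for sgRNA-PURPL#2, where 11.6% and 11.9% of all genes were called higher. Without 1 library the numbers higher went down to 4 for sgRNA-PURPL#1 (sgCtrl replicate 3, or sgRNA-PURPL#1 replicate 1 or 2, left out) and to 3 for sgRNA-PURPL#2 (sgCtrl replicate 1 left out). With overexpression, 9 of 16 were higher and 3 lower in PURPL#1-OE, and 10 higher and 1 lower in PURPL#2-OE, where 19.5% and 18.9% of all genes were called higher. The list medians were 0.29, 0.34, 0.43 and 0.29 in the same order of arms. CNGA1, the alpha subunit of the rod channel, went the opposite way to CNGA3. It rose from 1.74 ± 0.119 to 3.37 ± 0.238 CPM with sgRNA-PURPL#2 (SD, n = 3; log2 fold change 0.94, adjusted p = 0.00342, edgeR) and had 0.64 with sgRNA-PURPL#1 (adjusted p = 0.054, edgeR). It rose by 0.94 in PURPL#1-OE (adjusted p = 0.00185, edgeR) and by 0.70 in PURPL#2-OE (adjusted p = 0.0242, edgeR). The call in PURPL#2-OE was lost without Ctrl replicate 3 (adjusted p = 0.123) or without 1 unnumbered library of PURPL#2-OE (adjusted p = 0.17, edgeR). PDE3A, a phosphodiesterase that cGMP inhibits, rose by 0.92, 1.10, 0.98 and 1.01 in the 4 arms. PDE5A, which degrades cGMP, rose by 0.26 and 0.21 with the guides and by 1.34 and 1.11 with overexpression. Its call with sgRNA-PURPL#2 was lost without sgCtrl replicate 1 (adjusted p = 0.0713) or sgRNA-PURPL#2 replicate 2 (adjusted p = 0.0894, edgeR). GUCY1A2, a subunit of soluble guanylate cyclase, fell with overexpression from 23.8 ± 2.14 to 9.36 ± 0.247 and 4.77 ± 0.122 CPM. With the guides it rose by 0.31 for sgRNA-PURPL#1 (adjusted p = 0.0475, edgeR) and had -0.20 for sgRNA-PURPL#2 (adjusted p = 0.234, edgeR). The call with sgRNA-PURPL#1 was lost in edgeR without sgCtrl replicate 1 or 2 or any replicate of sgRNA-PURPL#1, at adjusted p from 0.102 to 0.274. The fall of CNGA3 was thus not shared by the list.

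SYT7 was set beside 43 genes of synaptotagmins and calcium-triggered exocytosis. The few called with the guides were mostly lower, a larger share than among all genes, and those called with overexpression went both ways. Of 21 tested with the guides, 6 were lower and 1 higher for sgRNA-PURPL#1, and 5 lower and 1 higher for sgRNA-PURPL#2, where 12.9% and 12.4% of all genes were called lower and 11.6% and 11.9% higher. Of 22 tested with overexpression, 6 were lower and 5 higher in PURPL#1-OE, and 5 lower and 4 higher in PURPL#2-OE, where 20.1% and 19.6% of all genes were called lower and 19.5% and 18.9% higher, so the overexpression counts lay near the background. The medians lay between -0.04 and 0.06 in all 4 arms. Among the synaptotagmins, SYT14 was the one other gene that was called lower in each arm, at -0.27, -0.60, -0.72 and -0.69. SYT1, a calcium sensor of fast release, was lower with the guides (-0.43 and -0.25), higher in PURPL#1-OE (0.41) and at -0.02 in PURPL#2-OE (adjusted p = 0.777, edgeR). SNAP25, a SNARE protein of the plasma membrane, fell with overexpression by -1.22 and -1.51. It had 0.14 and 0.03 with the guides (adjusted p = 0.456 and 0.906, edgeR). SYTL2, a synaptotagmin-like protein that binds RAB27, fell with the guides by -0.38 and -0.55 and rose in PURPL#1-OE by 0.61. SYT1 and SNAP25 are also on the list of neuron markers, whose summed level was 231 to 238 CPM in sgCtrl, 183 to 189 with sgRNA-PURPL#1 and 265 to 285 with sgRNA-PURPL#2. The sum was 197 to 209 in Ctrl, 189 to 196 in PURPL#1-OE and 159 to 167 in PURPL#2-OE, the neuronal ELAVL4 was at 0 in the knockdown table, and the part of these genes in the results was not tested.

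The genes around each of the 3 were read next, within 1 Mb of each span. Of 44 annotated neighbours of CNGA3, 15 were tested in each table. With sgRNA-PURPL#1 5 were called lower and 3 higher, where 12.9% of all genes were lower and 11.6% higher. With sgRNA-PURPL#2 4 were lower and 1 higher, where these shares were 12.4% and 11.9%. In PURPL#1-OE 2 were lower and 2 higher, where 20.1% of all genes were lower and 19.5% higher. In PURPL#2-OE 4 were lower and 1 higher, where these shares were 19.6% and 18.9%. ACTR1B, an actin-related subunit of dynactin, fell by -0.52 and -0.58 with the guides and had 0.16 and 0.02 with overexpression. ANKRD36B (-0.51 and -0.60) and C2orf92 (-0.77 and -0.69) also fell with both guides and were not called with overexpression. All lie 643 to 756 kb upstream of CNGA3. COA5 rose in all 4 arms, by 0.253, 0.413, 0.205 and 0.274. COX5B and MITD1 fell in both overexpression groups. With sgRNA-PURPL#1 the calls of ANKRD36B and COA5 were lost in some alternative fits, as was that of COA5 in PURPL#1-OE. The TMEM158 region held 57 annotated neighbours, 18 tested with the guides and 19 with overexpression. CDCP1, a transmembrane protein phosphorylated by Src kinases, lies 78 kb downstream of TMEM158 and fell in all 4 arms. Its level went from 12.9 ± 1.16 CPM in sgCtrl to 4.29 ± 0.943 and 3.87 ± 0.81 with the guides, and from 10.9 ± 0.852 in Ctrl to 2.95 ± 0.49 and 4.88 ± 0.479 with overexpression (SD, n = 3). The log2 fold changes were -1.58, -1.74, -1.89 and -1.17, with adjusted p of at most 1.83e-08 (edgeR). KIF15, a mitotic kinesin 351 kb downstream, fell by -0.81, -0.69, -1.44 and -1.13. With sgRNA-PURPL#1 3 neighbours of TMEM158 were lower and 3 higher, where 12.9% of all genes were lower and 11.6% higher. With sgRNA-PURPL#2 4 were lower and 3 higher, where these shares were 12.4% and 11.9%. In PURPL#1-OE 4 were lower and 3 higher, beside 20.1% and 19.5%. In PURPL#2-OE 2 were lower and 2 higher, beside 19.6% and 18.9%. LIMD1, 329 kb upstream, had -0.79, -0.71, -0.27 and -0.11, the last not called. ZNF197 and EXOSC7 rose with both guides, by 0.36 and 0.42 and by 0.34 and 0.35. The medians of the region lay between -0.06 and 0.02.

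SYT7 had 96 annotated neighbours, of which 29 were tested with the guides and 30 with overexpression. With sgRNA-PURPL#1 3 were lower and 6 higher, where 12.9% of all genes were called lower and 11.6% higher. With sgRNA-PURPL#2 1 was lower and 1 higher, where these shares were 12.4% and 11.9%. In each overexpression group 7 were lower and 4 higher, near the shares of all genes called (20.1% and 19.6% lower, 19.5% and 18.9% higher). SLC15A3, a lysosomal peptide and histidine transporter, fell with overexpression from 13.7 ± 0.431 to 3.45 ± 0.328 and 3.97 ± 0.239 CPM (SD, n = 3) and had 0.25 and 0.07 with the guides (adjusted p = 0.28 and 0.819, edgeR). RPLP0P2 went from 2.05 ± 0.187 to 0.104 ± 0.0342 and 0.286 ± 0.0781 CPM, but it is a pseudogene of an abundant ribosomal protein gene, and its reads are uncertain. AHNAK, a large scaffold protein of the plasma membrane, rose by 0.76 and 0.68 with overexpression. No region moved as a whole with its gene.

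**Figure D5:**
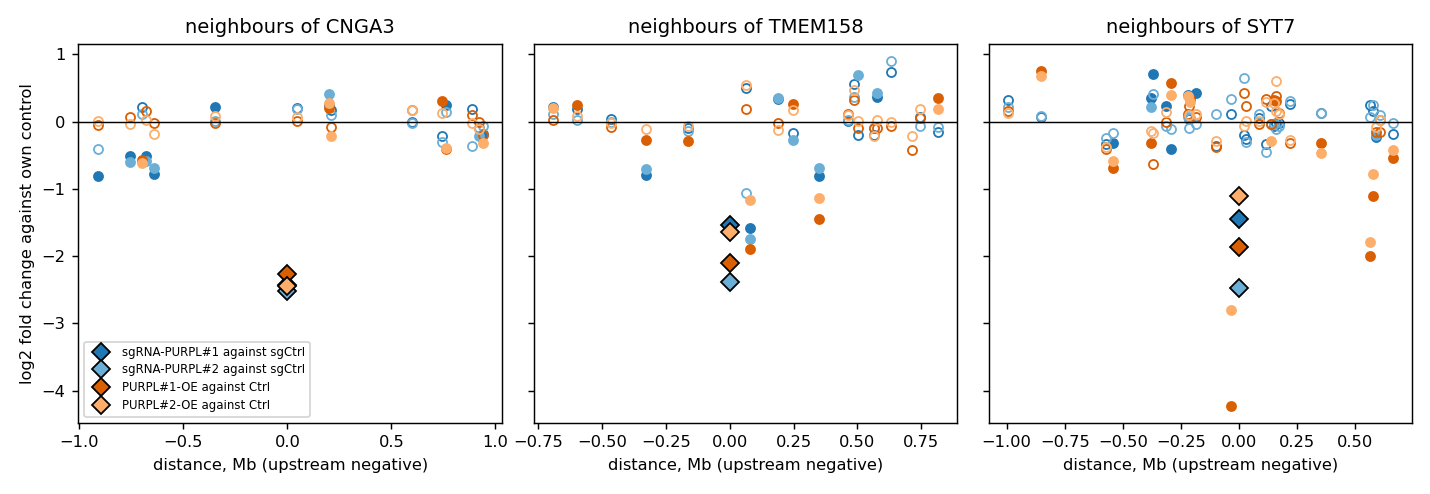
Log2 fold change of tested genes within 1 Mb of CNGA3, TMEM158 and SYT7 (vertical axis) by distance from the gene in Mb (horizontal axis), with filled points for an adjusted p under 0.05 and diamonds at 0 for the gene itself. Most points lie near 0, and CDCP1 beside TMEM158 lies between -1.17 and -1.89 in all 4 arms.

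The genes whose pattern was most like each of the 3 were found by Pearson's correlation of log2 CPM (prior count 2) over the 18 libraries, with each table centred on its control mean, among the 13638 genes tested in both tables. The libraries share their group structure, so these values describe likeness only. For CNGA3 the nearest were STMN1 (r = 0.943), a protein that destabilizes microtubules, UBASH3B (0.929) and PRLR (0.929), the prolactin receptor. STMN1 fell by smaller steps than CNGA3, with log2 fold changes of -0.67, -0.50, -0.43 and -0.49. For TMEM158 they were PHACTR1 (0.945), a regulator of actin and protein phosphatase 1, FKBP5 (0.928), a co-chaperone of the glucocorticoid receptor, and ATAD2 (0.925). For SYT7 they were ACKR4 (0.933), a scavenging chemokine receptor, CDCP1 (0.919) and STK10 (0.919). ACKR4 had log2 fold changes of -0.40 and -0.84 with the guides and -0.72 and -0.51 with overexpression. It was picked for its likeness to SYT7 in these libraries, so nothing is read from its order of groups. CDCP1, which lies next to TMEM158, was thus among the nearest of SYT7. Among the 3 genes themselves r was 0.778 for CNGA3 with TMEM158, 0.835 for CNGA3 with SYT7 and 0.803 for TMEM158 with SYT7. All 3 were chosen because they fell with both guides, and the guide libraries enter r, so nothing is read from these values. In the overexpression table, r for CNGA3 also rests on 15 or fewer reads a library.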

How the data were processed

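RNA-seq counts of poly(A)-selected RNA from 18 libraries were used, grouped by their titles. The authors deposited raw read counts per gene in 2 tables of 9 libraries each, with 61544 genes and their positions. The length they list is the whole gene span for every gene, and genes nested in a same-strand gene have 0 counts. Reads in introns thus appear to have been counted. The submitters' processing notes name HISAT2 2.1.0 and featureCounts 2.0.1 with FastQC 0.11.9, cutadapt 3.3, DESeq2 1.34.0, SAMtools 1.11 and Subread, on builds listed as hg38 and GRCh38.p13. Which annotation release and strand setting were used, and how multiply placed reads were treated, is not given in the sources used here. Although the molecule label reads genomic DNA, the protocol is one for RNA and was followed. Of the overexpression columns, 5 carry no replicate number, and were used as unnumbered members of the group in their name. No column was left out.

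Each table was fitted on its own in R 4.3.3 with edgeR 4.0.16: filterByExpr by group (min.count 10, min.total.count 15), TMM, a robust quasi-likelihood fit over all 9 libraries with 6 residual degrees of freedom, and Benjamini-Hochberg adjustment over all genes tested, at 0.05. This kept 13923 and 15267 genes. SE is the absolute log2 fold change over the square root of F. CPM used library totals times TMM factors. Counting intervals are exact conditional binomial intervals at 95%. The scripts were tested on simulated data. Replicate numbers were checked for pairing in the knockdown table. Deviations of same-numbered libraries correlated from -0.0888 to 0.0386 over 9 pairs, and those of other numbers from -0.0835 to 0.114 over 18. The check found no sign of pairing, but it cannot exclude that same-numbered libraries were handled together.

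Named genes were the 3 genes, PURPL, for each list the 4 with the largest change among those called in each contrast plus all SYT, CNG and HCN genes tested, neighbours called in all contrasts of a table with 1 direction, overlapping genes, and the 3 nearest by correlation; not all are printed. The genes and lists were chosen with earlier results of these data known. Alternatives were DESeq2 1.42.0, RLE scaling, no filter, only the 2 groups of a contrast, leaving out each library and a replicate block. Promoter sequences are RefSeq's (GRCh38.p14), and exons are from GENCODE 29.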

Additional observations from a re-analysis of the deposited data

Results flagged for a closer look

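Each value here is a log2 difference between the arms of a table that passed edgeR's quasi-likelihood test of that difference (adjusted p under 0.05).

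SYT7 was lower with sgRNA-PURPL#2 than with sgRNA-PURPL#1 (-1.02) and higher in PURPL#2-OE than in PURPL#1-OE (0.76). Both SYT7 calls were lost in some of the fits described above. PURPL was lower in PURPL#2-OE (-0.50). Among the RAS and ERK genes, AREG (1.08), EGR1 (0.58) and EREG (0.40) were higher in PURPL#2-OE than in PURPL#1-OE, and EPHA4 was lower (-0.17). Between the guides, DUSP5 (0.51), EPHA4 (0.37) and HBEGF (0.89) were higher with sgRNA-PURPL#2 and EREG was lower (-0.30). The HBEGF call was lost without replicate 1 of sgRNA-PURPL#1 or of sgRNA-PURPL#2 (adjusted p = 0.224 and 0.244, edgeR). That of EPHA4 between the overexpression groups was lost without some single libraries (adjusted p from 0.0678 to 0.118, edgeR).

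Among the cyclic nucleotide genes, GUCY1A2 (-0.97), NPR3 (-0.60), PDE1A (-0.62) and PDE5A (-0.23) were lower in PURPL#2-OE than in PURPL#1-OE and PRKG2 was higher (0.75). GUCY1A2 (-0.52) and PRKG2 (-0.68) were lower with sgRNA-PURPL#2 than with sgRNA-PURPL#1. Among the exocytosis genes, SYT1 (-0.43), SYT16 (-1.03) and SYTL2 (-0.58) were lower in PURPL#2-OE and SYT11 was higher (0.32). The SYT16 call was lost without 1 unnumbered library of PURPL#1-OE (adjusted p = 0.169) or PURPL#2-OE replicate 3 (adjusted p = 0.0786, edgeR). Between the guides DYSF was higher (1.15) and SYT14 lower (-0.34) with sgRNA-PURPL#2.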

How the results depend on the processing

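The fall of TMEM158 and SYT7 with overexpression kept its direction and its call in all 40 alternative values. CNGA3 kept both in the 17 that could be had, which says nothing of stability, since it was tested only where its Ctrl libraries passed the filter. It fell below the count filter without Ctrl replicate 1 and, for PURPL#2-OE, when only the 2 groups of a contrast were fitted; its adjusted p ran up to 0.0418 and 0.0429 in the other fits without 1 library. The difference of SYT7 between the overexpression groups lost its call with DESeq2 (0.76, adjusted p = 0.0738), with no filter (0.75, 0.0829) and with only the 2 groups fitted (0.76, 0.0895), and without 1 library it ran from 0.59 to 0.97. The difference of SYT7 between the guides ran from -1.40 to -0.72 without 1 library. CNGA3 between the guides ran from -0.20 to 0.0155, reversed without sgRNA-PURPL#1 replicate 3, and between the overexpression groups from -1.19 to 0.47, reversed without PURPL#2-OE replicate 3; DESeq2 gave no adjusted p for the latter. Without 1 library, SYT7 ran from -1.73 to -1.27 with sgRNA-PURPL#1 and from -2.85 to -2.18 with sgRNA-PURPL#2, and TMEM158 from -2.65 to -2.05 with sgRNA-PURPL#2. Genes called lower between the guides numbered 521, 811 with only the 2 groups fitted and 337 to 378 without 1 library, which leaves fewer samples; genes called higher between the overexpression groups numbered 943 and 600 to 1052. Cyclic nucleotide genes called higher with sgRNA-PURPL#1 numbered 7, 4 with DESeq2 and 4 to 6 without 1 library, and with sgRNA-PURPL#2 6 and 3 to 6. Apart from the stated fits with fewer samples, the cause was not tested. Of 147 called changes of other named genes, 121 kept their call in all alternatives run and none reversed.

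The replicate block in the knockdown table gave SYT7 -1.01 between the guides (adjusted p = 0.0432), TMEM158 -0.85 (0.237) and CNGA3 -0.10 (0.906), and 482 genes called lower, and it changed no call of the 3 genes. Same numbers there showed no sign of marking paired libraries, which does not exclude pairing. No paired analysis was possible because 5 columns carry no number in the overexpression table. Its low level, 0.544 CPM in Ctrl, limits CNGA3 in the overexpression table, where no library held more than 15 of its reads.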
